A study of Mus musculus with 12 samples.

Results

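Chemokines are small secreted proteins that guide leukocytes by binding receptors on their surface. The members described here were 53 genes of the 52636 in the count files, found by symbol in GENCODE M21: 34 ligands, 16 signalling receptors and 3 scavenging receptors. RNA was sequenced from lymphatic endothelial cells (LECs), the cells that line lymphatic vessels, sorted from mouse lungs after cigarette smoke (CS) or room air (RA). All mice carried Prox1-EGFP, a reporter in which the Prox1 promoter drives GFP. Mice entered the experiment at 6 weeks of age. Acute CS (2 libraries, 1 male and 1 female) and acute RA (2, likewise) mice were exposed for 8 weeks. Their labels give an age of 8wk, which does not match a start at 6 weeks of age and 8 weeks of exposure. Chronic CS (5 libraries, 4 male and 1 female) and chronic RA (3, 2 male and 1 female) mice were exposed for at least 24 weeks and are labelled Aged. Each acute library pooled cells of 2 to 5 mice, whereas a chronic library came from 1 mouse. Pooling, age and length of exposure thus cannot be told apart. The sort kept live CD31+ GFP+ cells and left out cells that stained for EPCAM or a lineage cocktail. The study asked how short and long smoke exposure change lung LECs.

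Most chemokine receptors are G protein coupled receptors that start migration. Lymphatic endothelium draws dendritic cells and T cells that carry Ccr7 into lymph through Ccl21, and it clears inflammatory CC chemokines through Ackr2 (D6), a receptor that internalises its ligands without G protein signalling. Ligands are also held on heparan sulfate and trimmed by proteases, and many are induced by NF-kB, the transcription factor of inflammatory signalling.

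Total counts ranged from 18821438 to 56998590 per library, and a floor of 3 counts corresponded to 0.0526 to 0.159 CPM, for counting error only. The chronic CS libraries F, M1 and M2 were the shallowest, at 18821438 to 22885446 counts. Levels are given as CPM, the count as a share of the library's total after edgeR's TMM correction for composition, and levels set between genes are FPKM, which also divides by exon length. The lymphatic identity of the libraries was clear: Prox1, the factor that defines LECs, ranged from 1042 to 2476 CPM. RNA of cell types outside the sort gate was present too. The summed level of 8 pan-leukocyte markers was 126 and 133 CPM in acute RA and 1627 and 2275 in acute CS, and 107 to 190 CPM in chronic RA and 118 to 385 in chronic CS. Acute CS F stood apart, with 8 neutrophil markers at 1119 CPM against 20.1 in acute CS M, and 11 epithelial markers at 8844 CPM against 271. The lymphatic markers (8) summed to 14098 and 15877 CPM in acute RA and to 6096 and 9368 in acute CS. In bulk RNA, more cells of a type and more RNA per cell cannot be told apart.

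Of the 53 members, 48 passed the filter on low counts. Ccl19, Ccl28, Cxcl5, Cxcl9 and Cxcl11 did not. The filter asks for at least 2 libraries above 0.245 CPM, and 43 members met that without the acute CS libraries, 41 in RA alone. The other 5 (Ccl8, Ccl12, Xcl1, Ccr3 and Ccr4) passed with the help of acute CS, the group where they were high. Members above the floor numbered 34 and 39 in acute RA, 49 and 50 in acute CS, 40 or 41 in chronic RA and 32 to 48 in chronic CS.

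**Figure D1:**
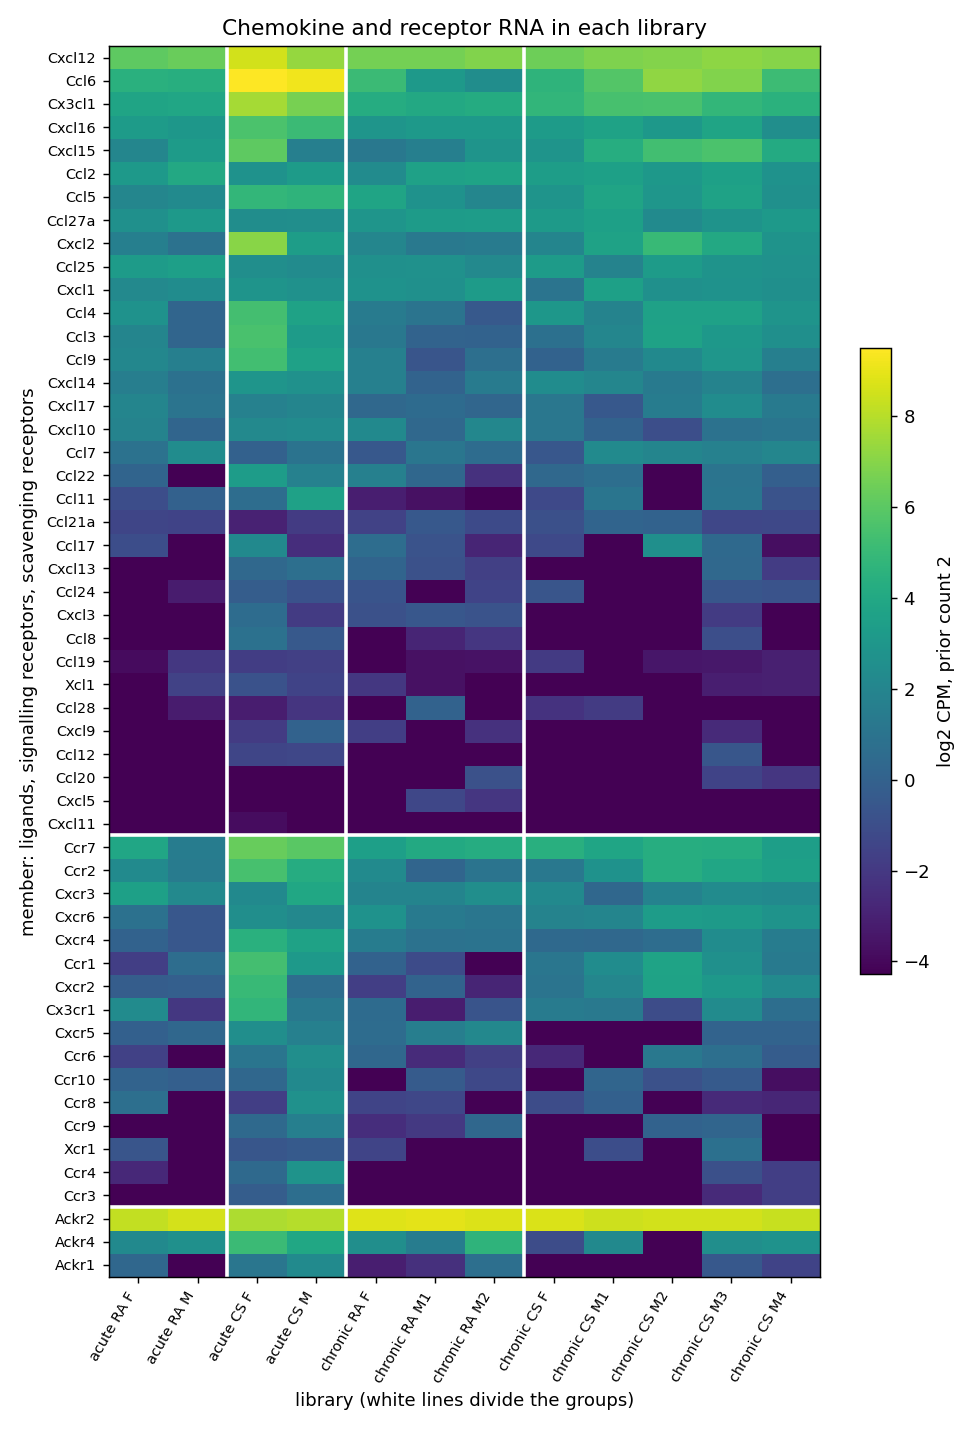
Log2 CPM (prior count 2) of all 53 members, in rows by role and mean level, in each of the 12 libraries, in columns by group. Ackr2 is bright in all 12, and the acute CS columns are brighter than acute RA across most ligands and signalling receptors.

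Ackr2 was the member with the highest level per length in room air. Its mean over the 5 RA libraries was 132 FPKM, with a range of 97.3 to 153. Cxcl12, the ligand of Cxcr4 and Ackr3, came next at 11.2 FPKM (8.19 to 14.5), so that the lowest Ackr2 library lay above the highest of every other member. The myeloid attractants Ccl6 (3.06 to 19.4 FPKM) and Ccl2 (4.43 to 14.1), the T cell attractant Ccl5 (4.21 to 14.1) and the homing receptor Ccr7 (1.42 to 9.67) followed, with ranges that overlapped one another and Cxcl12. Cx3cl1, a ligand tethered to the membrane, ranged from 3.46 to 4.91 FPKM. The order below Ackr2 thus did not separate neighbours beyond their spread.

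**Figure D2:**
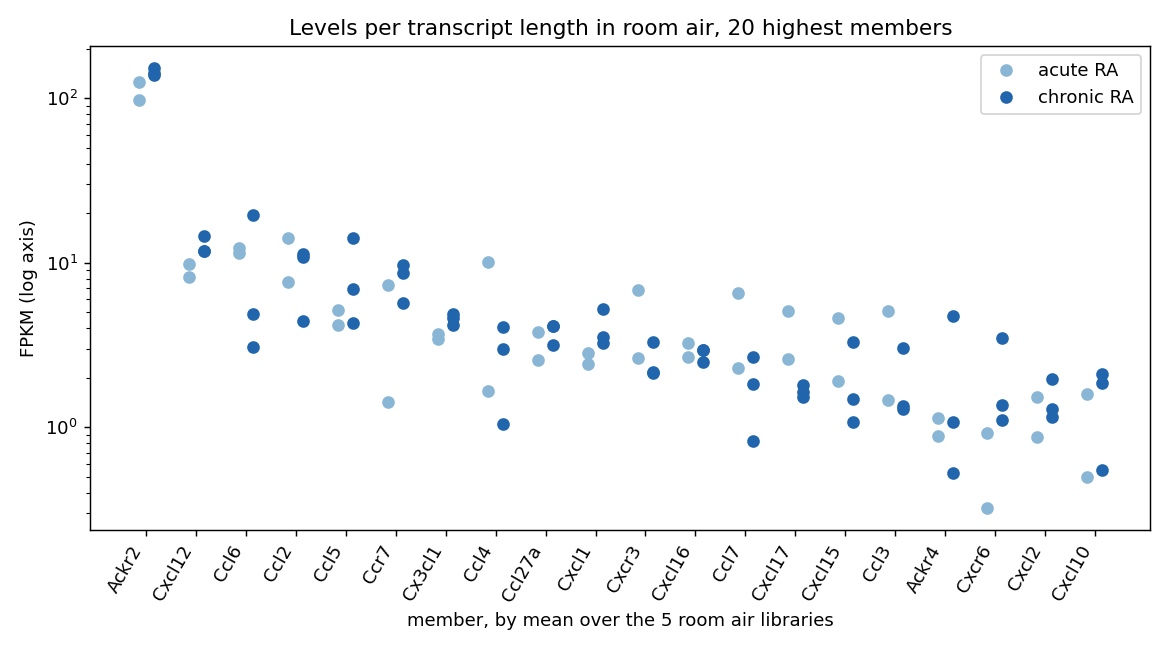
FPKM on a log axis of the 20 members with the highest mean over the 5 room air libraries, each point 1 library, coloured as acute RA or chronic RA. Ackr2, at 97.3 to 153 FPKM, lies apart from the overlapping ranges of the other members.

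Ccl21a, a gene of the Ccr7 ligand Ccl21, was read at only 0.0785 to 1.06 CPM over the 12 libraries. Its transcripts share 588 of 821 windows of 50 bases (71.6%) with near-identical copies on chromosome 4, and those copies (Gm21541, Gm13304, Ccl21b and Gm10591) were at 0.0189 CPM or less in every library. Reads that fit several genes are not assigned in this kind of counting, so the level of Ccl21a is uncertain. Ccl19, the other Ccr7 ligand, shares 52.0% of its windows and held 0 to 12 counts. The log2 difference of Ccl21a in acute CS was -1.07 ± 0.94 (SE), adjusted p = 0.698 in edgeR.

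In edgeR acute smoke was the exposure with called members. Against acute RA, 7 members rose at an adjusted p under 0.05 in edgeR's quasi-likelihood test and 0 fell, among 48 tested. Over all 21440 genes the same rule called 2.75% higher and 0.723% lower. The 7 were the ligands Cx3cl1, Cxcl12, Cxcl16, Ccl5 and Ccl6 and the receptors Ccr7 and Cxcr4. At an unadjusted p under 0.05, 23 members were higher and 1 lower (all genes 10.7% and 5.0%), and DESeq2 called 16 higher and 1 lower (all genes 7.44% and 2.6%). The 16 were the 7 called in edgeR with Ccl3, Ccl4, Ccl9, Cxcl2, Cxcl13, Ccr1, Ccr2, Ccr9 and Cxcr2, and the 1 was Ackr2. The acute groups did not overlap for 35 members that were higher and 4 that were lower in CS, where all genes gave 27.4% and 22.5%. Of the members tested, 41 had a higher and 6 a lower fitted level, and Ccl20 was at 0 in all 4 libraries. The median log2 difference of the members was 2.59, or 2.61 with the 6 members that were at 0 in 1 of the groups set at their bound and Ccl20 left out, beside 0.04 over all genes. These counts and medians include the members that passed the filter with the help of acute CS. Their higher level there followed in part from the filter.

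The ligands gave 5 of the calls among 29 tested, with a median log2 difference of 2.61, and 23 were higher. All 16 signalling receptors had a higher fitted level in acute CS, 2 were called, and their median was 3.03. Ccr3 and Ccr4 among them passed the filter with the help of acute CS. The 3 scavenging receptors differed among themselves, with Ackr2 lower, Ackr4 and Ackr1 higher, and none called in edgeR.

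Promoters, from 250 bases before to 50 after the RefSeq start, were found for 40 of the 53 members in the RefSeq table (GRCm38.p6). The NF-kB consensus was found on either strand in 11 of the 40 members (27.5%), beside 9.55% of all 27025 genes in the table: Ackr2, Ccl9, Ccl20, Ccl27a, Ccr1, Ccr3, Ccr6, Cxcl1, Cxcl2, Cxcl3 and Cxcl10. TGANTCA, a letter pattern bound by AP-1, was in 7 (17.5%, all genes 8.97%) and the TATA box letters TATAAA in 12 (all genes 15.7%). Of the called members in the table, Ccl6, Cx3cl1, Cxcl12 and Cxcr4 had no NF-kB match in this window. A match is a description of letters and not a bound site. The promoters of Cx3cl1 (called, no match), of Cxcl2 (2 overlapping matches, starting 97 and 96 bases before the start) and of Ackr2 (2 matches, 224 and 64 bases before the start) are shown 5′ to 3′ as members of different behaviour in smoke. Capitals mark the NF-kB matches.
Cx3cl1, GRCm38.p6 chr8:94771930-94772229, plus strand: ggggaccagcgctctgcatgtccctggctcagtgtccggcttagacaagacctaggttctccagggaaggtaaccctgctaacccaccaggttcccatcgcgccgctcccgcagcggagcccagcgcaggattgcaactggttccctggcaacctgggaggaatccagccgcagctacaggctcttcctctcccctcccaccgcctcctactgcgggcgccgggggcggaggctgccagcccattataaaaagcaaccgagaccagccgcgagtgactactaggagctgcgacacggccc
Cxcl2, GRCm38.p6 chr5:90903649-90903948, plus strand: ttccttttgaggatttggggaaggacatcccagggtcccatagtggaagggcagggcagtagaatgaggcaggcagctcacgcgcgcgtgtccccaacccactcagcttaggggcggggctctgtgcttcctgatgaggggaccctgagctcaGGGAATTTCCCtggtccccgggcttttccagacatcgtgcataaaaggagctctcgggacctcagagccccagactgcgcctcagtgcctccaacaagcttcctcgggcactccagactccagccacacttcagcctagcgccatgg
Ackr2, GRCm38.p6 chr9:121898105-121898404, plus strand: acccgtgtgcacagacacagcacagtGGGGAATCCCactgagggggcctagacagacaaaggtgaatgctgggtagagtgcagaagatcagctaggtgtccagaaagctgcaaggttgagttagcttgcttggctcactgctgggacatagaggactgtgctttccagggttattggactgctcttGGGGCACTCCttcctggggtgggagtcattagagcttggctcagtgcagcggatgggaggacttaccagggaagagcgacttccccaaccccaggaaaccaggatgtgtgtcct

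Cx3cl1 (fractalkine, chromosome 8, 94772009 to 94782427, plus strand) attracts monocytes and T cells that carry Cx3cr1 and can hold them on endothelium. It was at 13.6 and 14.4 CPM in acute RA F and M and at 199.8 and 101 CPM in acute CS F and M. The lower of the CS libraries was thus several times the higher RA library. The means were 14.0 ± 0.60 and 150 ± 70.1 CPM (SD, n = 2 each), and the log2 fold was 3.42 ± 0.41 (SE), adjusted p = 0.0040 in edgeR. Without acute CS F it was 2.85, adjusted p = 0.0169, and without acute RA M it was 3.43 and no longer called, adjusted p = 0.0766. With the acute groups fitted alone it was 3.41, adjusted p = 0.0544, so that the call was lost there too. Its receptor Cx3cr1 was at 5.07 and 0.189 CPM in acute RA F and M and at 28.0 and 2.28 in acute CS F and M, so those groups overlapped.

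Cxcl12 (chromosome 6, 117168535 to 117181367, plus strand) retains leukocytes and progenitors through Cxcr4. It was at 66.9 and 79.9 CPM in acute RA F and M and at 381 and 158 in acute CS F and M, a log2 fold of 1.88 ± 0.34 (SE), adjusted p = 0.0143 in edgeR. Without acute CS F the log2 fold was 1.11 and no longer called, adjusted p = 0.0839, and the call was also lost without acute RA F or M (adjusted p = 0.149 and 0.116). Cxcr4 (chromosome 1, 128588199 to 128592293, minus strand) was at 0.980 and 0.643 CPM in acute RA F and M and at 22.4 and 12.5 in acute CS F and M. Its log2 fold was 4.42 ± 0.81 (SE), adjusted p = 0.0140 in edgeR. Without acute CS F, RA F or RA M it was 3.94 to 4.76 and not called, with adjusted p from 0.0847 to 0.177. The other Cxcl12 receptor, Ackr3, which scavenges the ligand, was among the pathway genes and also rose, from 82.9 and 83.8 CPM in acute RA F and M to 225 and 478 in acute CS F and M, a log2 fold of 2.08 ± 0.40 (SE), adjusted p = 0.0187 in edgeR. The ligand and both of its receptors thus rose in acute CS, with the female library higher for Cxcl12 and Cxcr4 and the male library higher for Ackr3.

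Cxcl16 (chromosome 11, 70453983 to 70459984, minus strand) is the membrane-bound ligand of Cxcr6 on T cells. It was at 9.78 and 8.08 CPM in acute RA F and M and at 47.8 and 34.3 in acute CS F and M, a log2 fold of 2.20 ± 0.39 (SE), adjusted p = 0.0124 in edgeR. Without acute CS F, RA F or RA M the fold was 1.94 to 2.35 and not called, with adjusted p from 0.0943 to 0.159. Exons of Zmynd15 on the other strand overlap 18.3% of its exon bases, and the strand setting of the counting was not given in the sources used here. Cxcr6 itself was at 1.77 and 0.624 CPM in acute RA F and M and at 5.79 and 4.32 in acute CS F and M, and it was not called.

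Ccl6 (chromosome 11, 83587882 to 83593087, minus strand), a ligand made by macrophages and other myeloid cells, had the highest level per length of the members in acute CS, 363 FPKM beside 75.4 for Ackr2 (means, n = 2). It stood at 22.2 and 20.7 CPM in acute RA F and M and at 722 and 583 in acute CS F and M, a log2 fold of 4.93 ± 1.02 (SE), adjusted p = 0.0246 in edgeR. Ccl5 (chromosome 11, 83525778 to 83530518, minus strand), made by T and NK cells among others, was at 4.04 and 4.96 CPM in acute RA F and M and at 29.0 and 26.0 in acute CS F and M, a log2 fold of 2.61 ± 0.56 (SE), adjusted p = 0.0273 in edgeR. The acute CS libraries lay close together for these 2 genes. Ccl6 lost its call without acute CS F, RA F or RA M (adjusted p from 0.0943 to 0.229) and Ccl5 without any 1 of the 4 acute libraries (adjusted p from 0.0520 to 0.227), with log2 folds of 4.77 to 4.98 and 2.47 to 2.73.

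Ccr7 (chromosome 11, 99144196 to 99155077, minus strand), carried by migrating dendritic cells and naive T cells, was at 14.5 and 2.80 CPM in acute RA F and M and at 79.4 and 61.5 in acute CS F and M. Its log2 fold was 3.02 ± 0.63 (SE), adjusted p = 0.0243 in edgeR. It was 4.65 without acute RA F (adjusted p = 0.0237) and 2.24 without acute RA M (adjusted p = 0.102). Without acute CS F it was 2.83, adjusted p = 0.124, so that leaving out acute RA M or acute CS F ended the call.

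**Figure D3:**
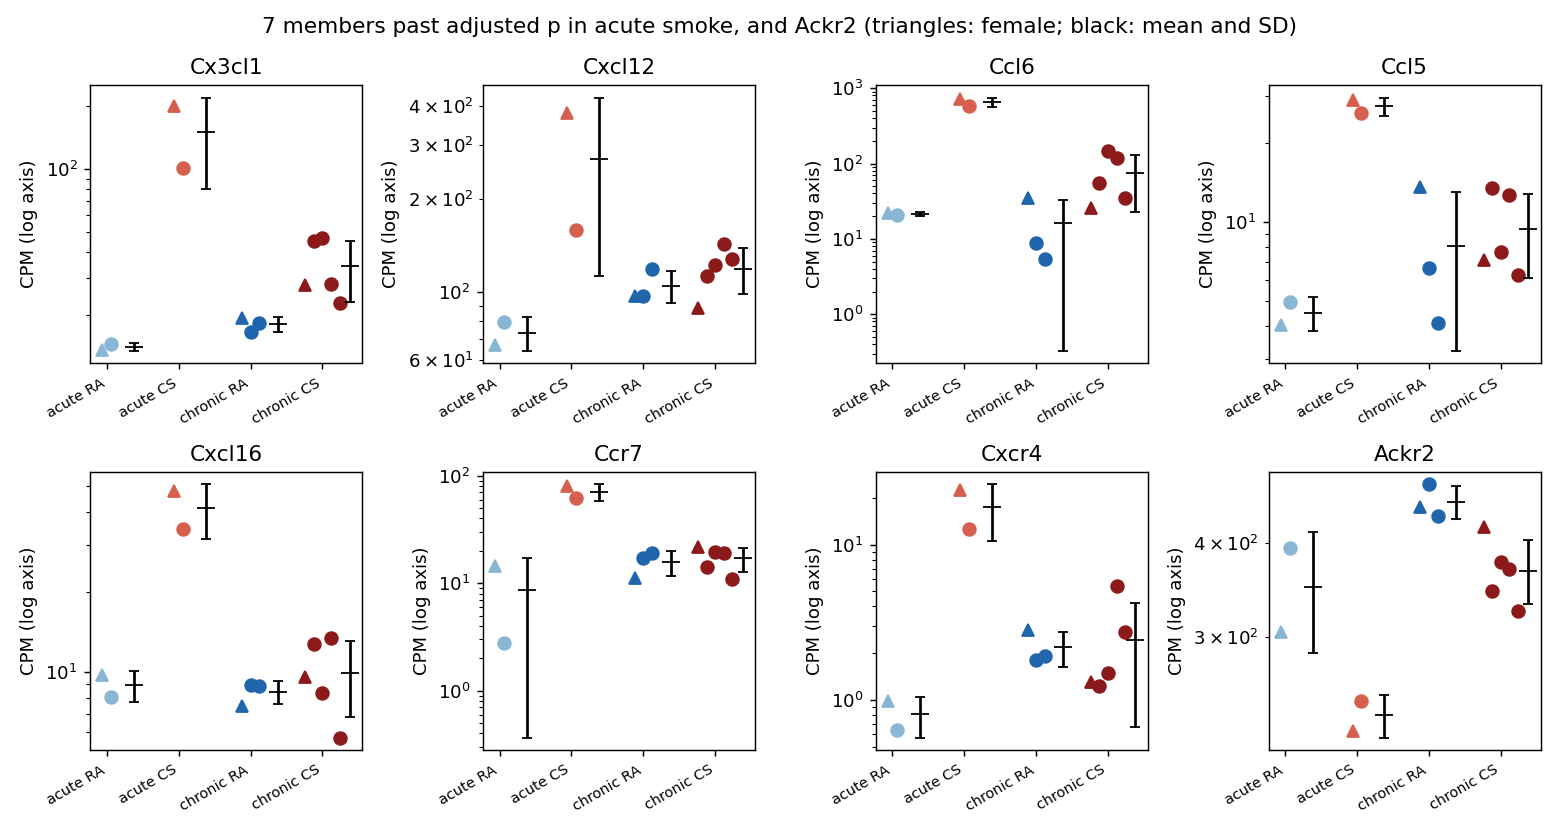
CPM on a log axis of the 7 called members and Ackr2, by group. Each point is 1 library (triangles female, circles male) and the black marks are the group mean and SD. For the 7 called members both acute CS libraries lie above both acute RA libraries, and for Ackr2 below them.

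Marker levels moved with these members. All 8 pan-leukocyte genes rose in acute CS, and their defining gene Ptprc (CD45) went from 19.6 and 19.8 CPM in acute RA to 154 and 285 in acute CS. T and NK cell markers summed to 28.1 and 29.5 CPM in acute RA and to 167 and 324 in acute CS, with 5 of 10 called higher, Cd3d among them. B and plasma cell markers went from 18.4 and 34.6 CPM to 170 and 416, with 8 of 8 higher in fitted level and 0 called. Basophil and mast cell markers went from 162 and 190 CPM to 433 and 917, with 8 of 8 higher and 2 called. Alveolar macrophage markers went from 766 and 848 CPM to 2245 and 2554, with 2 of 11 called higher and 1, Mrc1, lower. Mrc1 made up most of the sum in acute RA, and without it the sum went from 134 and 185 CPM to 1980 and 2143. Dendritic cell markers, with Flt3 first in the list, summed to 493.4 and 543.9 CPM in acute RA F and M and to 463 and 407 in acute CS F and M. Although the sum was lower, 7 of the 9 had a higher fitted level and 2 a lower one, with a median log2 difference of 2.08. In edgeR 2 were called higher and 1 lower. Mesenchymal markers, with Col1a1 first in the list, summed to 352 and 378 CPM in acute RA and to 941 and 1337 in acute CS, with 6 of 11 called higher. Blood endothelial markers, with Cdh5 first in the list, summed to 7370 and 8580 CPM in acute RA and to 8661 and 10874 in acute CS. Kdr, Plvap and Cldn5, none of them called, held most of that sum, at means of 2398, 2590 and 2113 CPM in acute RA. Of the 12, 10 had a higher fitted level and 6 were called higher, with a median log2 difference of 1.91. By contrast, 3 of 8 lymphatic markers were called lower. The part of these cells in the chemokine differences was not tested.

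Several further members were high in acute CS F and far lower in acute CS M. Cxcl2, a neutrophil attractant whose promoter with NF-kB matches is printed among the sequences, was at 132 and 10.3 CPM in acute CS F and M and at 3.16 and 1.80 in acute RA F and M, a log2 fold of 4.84 ± 1.19 (SE), adjusted p = 0.0508 in edgeR. Cxcr2, its receptor on neutrophils, was at 32.5 and 1.54 CPM in acute CS F and M and at 0.811 and 0.870 in acute RA, adjusted p = 0.141. S100a8, the first of the neutrophil markers, was at 349 and 4.97 CPM in the same CS libraries and at 10.5 and 1.68 in acute RA F and M. Cxcl15, a ligand of lung epithelium, followed the same order at 66.9 and 3.12 CPM, beside Sftpc (surfactant protein C) at 4139 and 128. Without acute CS F the log2 differences were 2.05 for Cxcl2, 0.87 for Cxcr2 and -1.14 for Cxcl15, none of them called. Without acute CS M, Cxcl2 at 5.74 (adjusted p = 0.0107) and Cxcr2 at 5.27 (adjusted p = 0.0402) were called, on acute CS F alone. The part of neutrophil and epithelial RNA was not tested.

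Ccl3, Ccl4, Ccl9, Ccr1 and Ccr2, which attract myeloid cells or act as their receptors, were also higher in acute CS F than in acute CS M. Ccl3 was at 46.5 and 9.57 CPM in acute CS F and M, Ccl4 at 41.4 and 12.5, and Ccl9 at 40.0 and 11.9, against at most 6.67 CPM of each in acute RA. Ccr1, which binds Ccl3, was at 40.9 and 9.002 CPM, and Ccr2, the Ccl2 receptor of monocytes, at 44.1 and 18.7, against at most 4.90 in acute RA. None of these 5 was called, with adjusted p from 0.102 to 0.164 in edgeR. DESeq2 called all 5, with adjusted p from 0.00266 to 0.0212. The 10 monocyte and interstitial macrophage markers summed to 4795 and 1857 CPM in acute CS F and M and to 357 and 316 in acute RA F and M. Lyz2 made up most of each sum. The defining receptor Csf1r was at 259 and 31.5 CPM in acute CS F and M. Of the 10, 7 were higher in acute CS F and 3 (C1qa, C1qb and C1qc) in acute CS M, and the alveolar macrophage sum was 2245 and 2554. The part of these cells was not tested.

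A few members of higher level had smaller or opposite differences. Ccl2, a monocyte attractant, was at 8.70 and 16.1 CPM in acute RA F and M and at 6.60 and 9.54 in acute CS F and M, which overlapped. Ccl25, a gut and thymus ligand, was at 9.68 and 11.03 CPM in acute RA and at 5.73 and 5.16 in acute CS, adjusted p = 0.354 in edgeR. Cxcr3, a receptor of activated T cells, was at 11.8 and 4.58 CPM in acute RA F and M and at 4.71 and 15.3 in acute CS F and M. The 28 members outside the naming rule, Cxcr6 among them, reached at most 12.1 CPM in any library.

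Ackr2 (chromosome 9, 121898355 to 121911074, plus strand) was at 304 and 395 CPM in acute RA F and M and at 225 and 247 in acute CS F and M. Both CS libraries lay under both RA libraries. The log2 difference was -0.57 ± 0.15 (SE), adjusted p = 0.0754 in edgeR and 0.00768 in DESeq2. The lymphatic marker Prox1, in the same libraries, fell from 2239 and 2476 CPM to 1042 and 1262, a log2 difference of -1.03 ± 0.16 (SE), adjusted p = 0.00797 in edgeR. Of the 8 lymphatic markers 7 had a lower fitted level, with a median log2 difference of -1.06. Ackr4, which scavenges the Ccr7 and Ccr9 ligands, was at 4.75 and 6.15 CPM in acute RA and at 34.5 and 15.03 in acute CS, adjusted p = 0.595.

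Each acute group held 2 libraries, so an exact two-sided permutation test of a single member cannot go below p = 0.333. Leaving out 1 acute library left 8 called members without acute CS M, 1 without acute CS F, 2 without acute RA F and 0 without acute RA M. Each of these fits leaves a group of 1 library, which is assumed to vary like the other groups, so its p-values hold no replicate check of that group.

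The genes around the receptors were examined as 3 lists, to be read against the 2.75% of all genes called higher and 0.723% called lower in acute CS and their median log2 difference of 0.04. Of 32 signalling and trafficking genes, 6 rose in acute CS and 1 fell, with a median log2 difference of 0.41. Among those that rose, Rac2, a small GTPase of blood cells, went from 7.88 to 146 CPM (means), Dock2 from 6.02 to 78.1, Pik3cd from 6.49 to 60.9 and Ptk2b from 8.37 to 78.4, with Vav1 and Rgs1 besides. Rac2 is also 1 of the 8 pan-leukocyte markers. Rgs16, which ends G protein signals, fell from 52.1 to 21.5 CPM. Of 27 presentation and processing genes 4 rose and 1 fell, with a median of 0.34: Ndst1, an enzyme of heparan sulfate synthesis, went from 39.7 to 112 CPM, Dpp4, a protease that clips chemokines, from 12.3 to 118, and Mmp2 from 14.2 to 58.3, with Ackr3 given above, while Mmp14 fell from 784 to 351. Of 29 induction genes 1 rose and 1 fell, with a median of 0.32. Tnfaip3, an NF-kB target that limits the pathway, rose from 35.9 to 228 CPM, and Fos fell from 4362 to 1765. In chronic CS 0 genes of the 3 lists were called in edgeR, as were 0.0% of all genes. At an unadjusted p under 0.05, 3 signalling genes were higher and 4 lower, 3 presentation genes higher and 5 lower, and 3 induction genes higher and 8 lower, beside 5.57% and 5.35% of all genes.

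In chronic smoke 0 members were called, as were 0.0% of all genes in edgeR. At an unadjusted p under 0.05, 11 members were higher and 3 lower, beside 5.57% and 5.35% of all genes. DESeq2 called 9 members, all higher (all genes 1.99%): Ccl3, Ccl4, Ccl11, Cxcl2, Cxcl15, Cx3cl1, Ccr1, Ccr2 and Cxcr2. The median log2 difference of the members was 0.39, beside 0.01 over all genes, and 33 had a higher and 15 a lower fitted level. The groups did not overlap for 5 members that were higher and 3 that were lower in CS, and all genes gave 3.92% and 5.49%. An exact two-sided permutation test of 5 against 3 libraries reaches its smallest value, p = 0.0357, for each of these 8.

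Cx3cl1 was again among them. It was at 16.4, 18.2 and 19.3 CPM in chronic RA M1, M2 and F and at 27.7, 45.3, 46.8, 28.2 and 22.9 in chronic CS F, M1, M2, M3 and M4. Every chronic CS library lay above every chronic RA library. The means were 18.0 ± 1.46 (SD, n = 3) and 34.2 ± 11.05 (SD, n = 5) CPM, and the log2 difference was 0.92 ± 0.28 (SE), adjusted p = 0.330 in edgeR and 0.0385 in DESeq2. Mesenchymal markers summed to 184 to 242 CPM in chronic RA and to 339 to 665 in chronic CS, with 9 of 11 higher at an unadjusted p under 0.05 and 0 called. Of the 12 blood endothelial markers 4 were higher and 3 lower at that p. In fitted level 8 were higher and 4 lower, with a median log2 difference of 0.33. Their sum was 8710 to 9115 CPM in chronic RA and 6831 to 8764 in chronic CS. Kdr, Plvap and Cldn5, which held most of that sum, had a lower fitted level. The part of these cells was not tested.

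The receptors Cxcr2 and Ccr1 were higher in every chronic CS library. Cxcr2 was at 1.04, 0.0894 and 0.251 CPM in chronic RA M1, M2 and F and at 1.94, 4.05, 12.5, 8.36 and 4.84 in chronic CS F, M1, M2, M3 and M4, adjusted p = 0.314 in edgeR. Ccr1 was at 0.403, 0 and 1.003 CPM in the RA libraries and at 2.15, 5.24, 13.2, 6.11 and 2.62 in the CS libraries in the same order, adjusted p = 0.333. For both receptors chronic CS M2 was highest and F lowest of the CS libraries. Neutrophil markers summed to 5.39 to 13.8 CPM in chronic RA and to 21.0 to 152 in chronic CS, where the order was likewise M2 highest and F lowest. Monocyte and interstitial macrophage markers summed to 111 to 373 CPM in chronic RA and to 256 (F) to 1418 (M3) in chronic CS. These sums overlapped, and 10 of the 10 genes had a higher fitted level. The part of these cells was not tested.

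Of the ligands, Ccl4, which attracts monocytes and T cells, was at 1.96, 0.685 and 2.69 CPM in chronic RA M1, M2 and F and at 7.93, 3.61, 11.9, 11.99 and 7.19 in chronic CS F, M1, M2, M3 and M4, adjusted p = 0.333 in edgeR. Cxcl15 was at 3.17, 7.03 and 2.29 CPM in the RA libraries and at 7.14, 19.9, 39.8, 49.1 and 17.7 in the CS libraries in the same order, adjusted p = 0.367. The highest RA value of Cxcl15 lay just under the lowest CS value. Epithelial markers, which summed to 258 to 515 CPM in chronic RA and 1192 to 5055 in chronic CS, had 9 of 11 genes higher without overlap and moved with Cxcl15, and their part was not tested.

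The members lower without overlap in chronic CS numbered 3, and 2 of them were rare. Ackr2 was at 479, 435 and 447 CPM in chronic RA M1, M2 and F and at 420, 346, 378, 369 and 325 in chronic CS F, M1, M2, M3 and M4, a log2 difference of -0.30 ± 0.11 (SE), adjusted p = 0.385 in edgeR. Prox1 in the chronic groups averaged 1967 ± 138 (SD, n = 3) and 2048 ± 241 (SD, n = 5) CPM, a log2 difference of 0.06 ± 0.11 (SE), whereas 6 of the 8 lymphatic markers had a lower fitted level in chronic CS. The median log2 difference of the 8 was -0.25 and 0 were called. Their sum was 19033 to 21902 CPM in chronic RA and 14017 to 20509 in chronic CS, and the part of the lymphatic share in the Ackr2 difference was not tested. Cxcr5, a receptor of B cells and follicular T cells, was at 3.02, 4.44 and 1.44 CPM in the RA libraries and at 0, 0, 0, 1.01 and 1.02 in the CS libraries, adjusted p = 0.454. Of the 8 B and plasma cell markers 6 had a lower fitted level in chronic CS, with a median log2 difference of -0.79 and overlapping sums of 77.9 to 219 CPM in RA and 43.0 to 245 in CS, and their part was not tested. Cxcl3 was at 0.634, 0.536 and 0.501 CPM in RA and at 0, 0, 0, 0.214 and 0 in CS, adjusted p = 0.427. The libraries at 0 for Cxcr5 were the 3 shallowest, with floors of 0.131 to 0.159 CPM, which lie under the RA values.

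Of the other 6 members called in acute CS, 5 had chronic log2 differences of 0.10 to 0.24, and Ccl6 a larger one. Cxcl12 averaged 104 ± 12.5 (SD, n = 3) and 119 ± 20.3 (SD, n = 5) CPM, with a log2 difference of 0.19 (95% interval -0.35 to 0.73). For Cxcl16 the log2 difference was 0.24 (-0.37 to 0.84), for Ccr7 0.10 (-0.83 to 1.04), for Cxcr4 0.17 (-0.97 to 1.31) and for Ccl5 0.22 (-0.64 to 1.07). These intervals do not show equal levels. Ccl6 averaged 16.3 ± 16.1 and 75.9 ± 53.1 CPM with overlapping groups, a log2 difference of 2.22 ± 0.70 (SE), adjusted p = 0.333 in edgeR. Of 11 alveolar macrophage markers 10 had a higher fitted level in chronic CS. Without Mrc1 they summed to 57.4 to 139 CPM in chronic RA and 95.7 to 447 in chronic CS, which overlapped. The part of these cells in the Ccl6 difference was not tested. Cxcl2, Ccl3 and Ccr2 had fitted folds of 4.71, 4.50 and 4.08, which DESeq2 called and edgeR did not.

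**Figure D4:**
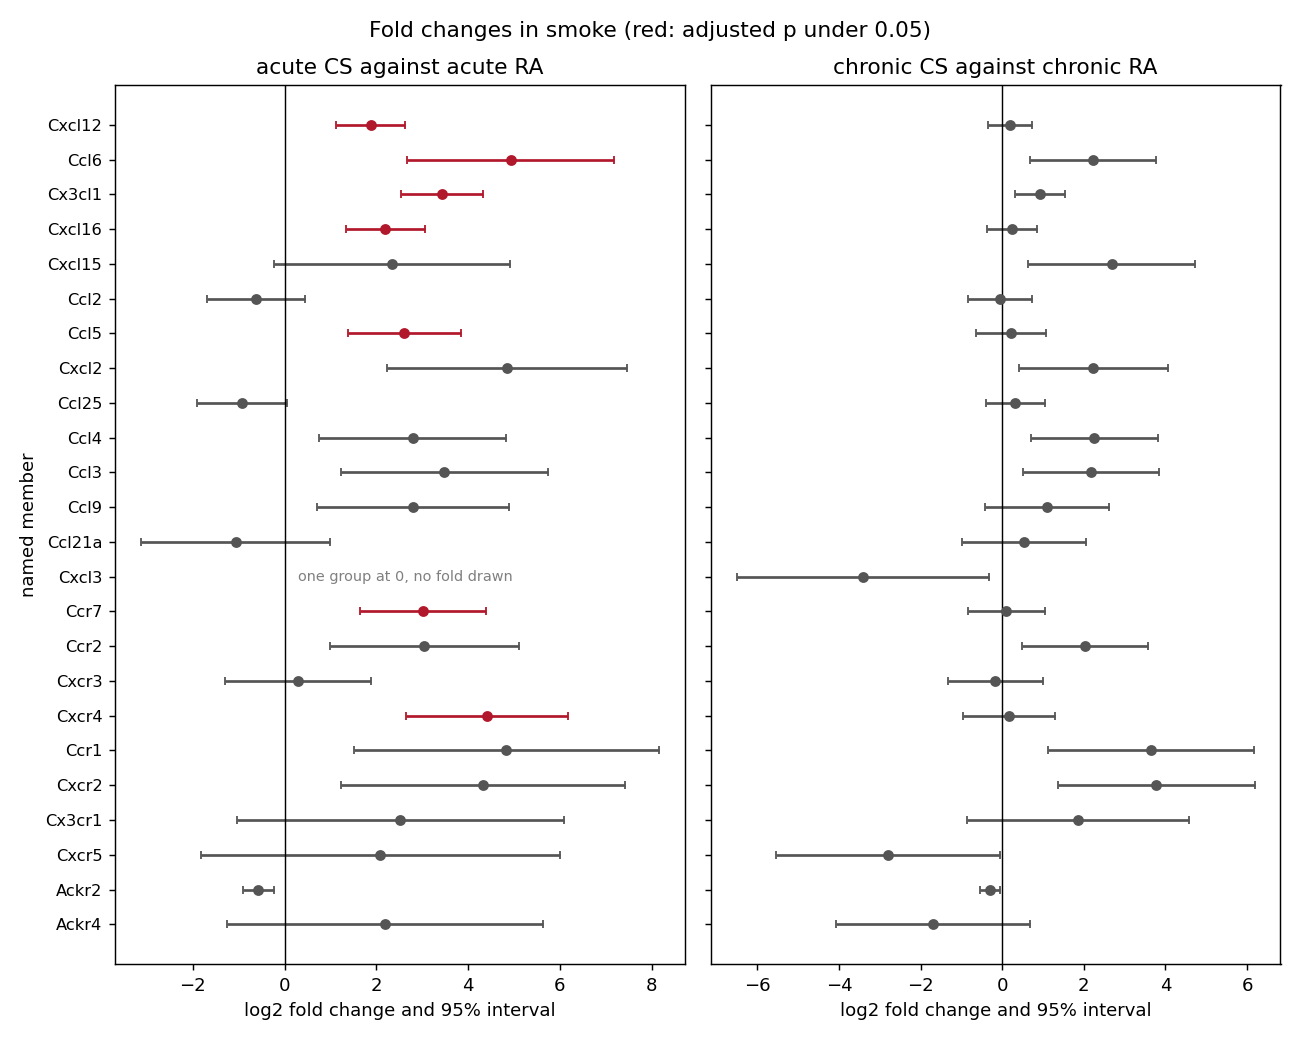
Log2 fold change with its 95% interval from edgeR of the named members that passed the filter, in acute CS against acute RA (left) and chronic CS against chronic RA (right). Red marks an adjusted p under 0.05, which 7 members reach on the left and 0 on the right.

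The acute and chronic effects were compared by an interaction in the same fit. These times differ in age of the mice and in pooling as well. Cx3cl1 was the 1 member called (all genes 0.401% higher): its acute log2 fold exceeded the chronic one by 2.50 ± 0.47 (SE), adjusted p = 0.0496 in edgeR. At an unadjusted p under 0.05 there were 13 members (all genes 11.9%), and DESeq2 called 6 with a larger acute effect (all genes 3.96%): Cx3cl1, Cxcl12, Cxcl16, Ccl5, Ccr7 and Cxcr4. In edgeR the adjusted p of the last 5 ranged from 0.0754 to 0.156. The call of Cx3cl1 lay at the threshold. Leaving out acute CS F, any of the 5 RA libraries or chronic CS F, M1 or M4 left 0 members called, and leaving out chronic CS M3 left Cxcr4 in its place.

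The RA groups differ in age, time in the experiment and pooling. Between them 0 members were called in edgeR (all genes 0.0%) and 0 in DESeq2 (all genes 1.55%). At an unadjusted p under 0.05 there were 6 members (all genes 7.01%), and the median log2 difference was 0.03. Ackr2 was at 435 to 479 CPM in chronic RA and at 304 and 395 in acute RA, adjusted p = 0.657 in edgeR. Cxcl12 was at 96.6 to 118 and at 66.9 and 79.9 CPM, and Cx3cl1 at 16.4 to 19.3 and at 13.6 and 14.4. Each smoke group was tested only against the RA group of its own exposure time.

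**Figure D5:**
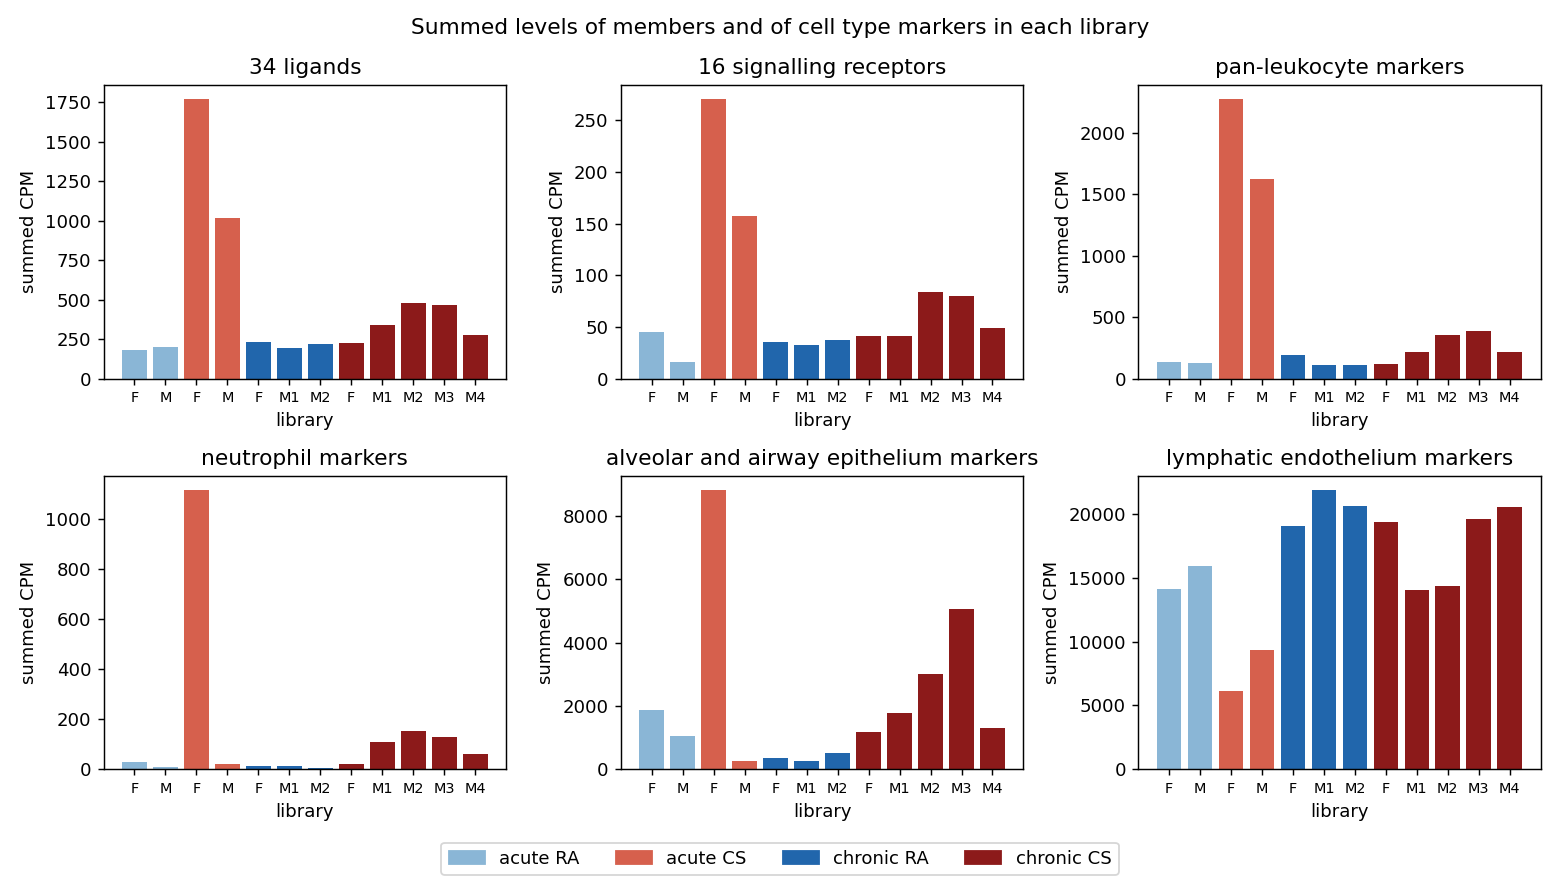
Summed CPM per library, with bars from 0, of the 34 ligands, the 16 signalling receptors and 4 marker lists, coloured by group. The ligands sum to 1015 and 1771 CPM in acute CS and to 182 and 198 in acute RA, and the pan-leukocyte, neutrophil and epithelial bars are high in some of the same libraries.

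Summed over role, the 34 ligands reached 182 and 198 CPM in acute RA F and M and 1771 and 1015 in acute CS F and M. In the chronic groups they reached 192 to 229 CPM in RA and 225 to 477 in CS, which overlapped. The 16 signalling receptors summed to 44.7 and 15.9 CPM in acute RA F and M and to 271 and 158 in acute CS F and M, and to 32.3 to 37.8 in chronic RA and 40.9 to 84.2 in chronic CS. The 3 scavenging receptors, nearly all Ackr2, went the other way, from 310 and 401 CPM to 261 and 266 in the acute groups and from 452 to 482 in chronic RA to 332 to 421 in chronic CS. Neither receptor sum overlapped between smoke and its own RA group.

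Many members share a chromosome. Chromosome 11 holds 13, of which 11 are ligands, chromosome 9 holds 12, all receptors, and chromosome 5 holds 10, all ligands. Of the 7 members called in acute CS, 4 lie on chromosome 11 and 0 on chromosome 9, although 11 of 12 on chromosome 9 had a higher fitted level. In chronic CS 12 of the 13 on chromosome 11 were higher in fitted level and 3 of the 7 tested on chromosome 5.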

How the data were processed

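Full-length cDNA libraries of 12 LEC samples were sequenced. The authors checked reads with FastQC 0.11.9, trimmed them with Skewer, filtered them with Minion, aligned them to GRCm38 with STAR and deposited read counts per Ensembl gene from its GeneCounts mode, without normalization. The annotation release and strand setting are not given in the sources used here.

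Counts were analysed with edgeR 4.0.16 and limma 3.58.1 in R 4.3.3. Gene names, positions and exon lengths came from GENCODE M21 (GRCm38), where 147 of 52636 identifiers were not found. After edgeR's expression filter, 21440 genes of all 12 libraries entered 1 quasi-likelihood model with a term per group (F-test, TMM scaling), and p-values were adjusted over all genes by Benjamini and Hochberg. SEs were derived from the F statistic. FPKM used the union of exons, log2 CPM a prior count of 2, and a fold against a group at 0 the floor of 3 counts. Groups and sexes came from the labels. Acute libraries are pools and chronic libraries single mice, so p-values measure the spread between libraries of both kinds. DESeq2 1.42.0 was an alternative, with those listed in the closing part. The method was checked on simulated counts.

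Named members had a group mean of at least 10 CPM, an adjusted p under 0.05 in any comparison, or no overlap and an unadjusted p under 0.05 in the chronic comparison. Ccl21a and Ccl19 were added. Of pathway lists up to 5 genes with the smallest p were named, and of cell type lists the first gene and the sum. Outside these rules, Rgs1, Rgs16, Cxcr6, the markers Mrc1, Lyz2, C1qa, C1qb, C1qc, Kdr, Plvap and Cldn5, the macrophage sum without Mrc1 and the members listed with a count or a motif were named after their values were seen. The members and lists were chosen with earlier results of these data known.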

Additional observations from a re-analysis of the deposited data

Results flagged for a closer look

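The acute and chronic effects on Cx3cl1 were called as different: its acute log2 fold of 3.42 exceeded the chronic one of 0.92 by 2.50 ± 0.47 (SE), adjusted p = 0.0496 in edgeR's interaction test, a value at the threshold. The call was lost with library size in place of TMM, DESeq2 size factors in edgeR, sex as a covariate, robust estimation, the replicate block, chronic CS F, M1 and M2 only, and without acute CS F, any of the 5 RA libraries, or chronic CS F, M1, M3 or M4. Cx3cl1 was higher in 2 of 2 acute CS and 5 of 5 chronic CS libraries than in every RA library of the same time.

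In the 5 chronic CS libraries, 25 named members were examined for a library far from the others by Dixon's criterion, which chance meets in about 1 of 20 groups, and 2 met it. Cxcl3 was at a log2 CPM of -1.91 in chronic CS M3, where the other 4 libraries were at 0 counts (-4.28 with the prior count). With 4 libraries tied, any count in the other would meet the criterion, so the chance rate does not apply to Cxcl3. Cxcr3 was at a log2 CPM of 0.31 in chronic CS M1, and the nearest other library was at 1.84.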

How the results depend on the processing

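The 7 members called in acute CS became 17 with DESeq2 (the 7 among them), 2 with only the acute groups fitted, and 0 to 8 over the leave-one-out fits. The cause was not tested, and fits of fewer libraries hold fewer residual degrees of freedom. The chronic count of 0 became 9 with DESeq2 and was 0 over the leave-one-out fits. It was also 0 with chronic CS F, M1 and M2 only and with M3 and M4 only. The interaction count of 1 became 6 with DESeq2, 7 at an unadjusted p under 0.005 with a log2 fold of 1, 2 with chronic CS F, M1 and M2 only, and 0 with library size in place of TMM, DESeq2 size factors in edgeR, sex as a covariate or robust estimation, and it was 0 to 2 over the leave-one-out fits. The room air count was 0 under every alternative run. Over the named members no direction reversed among called values. Of the acute values under alternatives, 437 kept their side of the threshold, 30 lost a call and 13 gained it, and of the chronic values 520 kept theirs and 8, all with DESeq2, gained a call. A prior count of 0.5 moved the mean log2 CPM differences of Cxcl3 alone among named members beyond the spread, to 5.50 in acute and -4.63 in chronic CS.

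Libraries that share time, sex and number were also fitted as a replicate block. It called 1 member in acute CS (Cx3cl1), 0 in chronic CS and 0 in the interaction, and the room air comparison could not be fitted with it. Deviations of libraries with the same number correlated at -0.04 to 0.07. The acute M and F values are the same by construction, since each acute group held 2 libraries. Values near 0 show no pairing by number, but cannot exclude one.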
